A study of Mus musculus with 7 samples.

Results

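The insulin-like growth factor (IGF) axis and its imprinted neighbour H19 were followed as 10 genes of the 25322 in the deposited table. They were found by gene name and are the ligands Igf1 and Igf2, the non-coding RNA H19, the receptor Igf1r, and the binding proteins Igfbp2, Igfbp3, Igfbp4, Igfbp5, Igfbp6 and Igfbp7. Bulk RNA-seq was made from skin cells of Zfp750 knockout and control mice that expressed the red reporter tdTomato and were sorted on day 36. The deleted gene, Zfp750, corresponds to human ZNF750, a transcription factor of epidermal differentiation, and the comparison asks how the sorted cells differ when the gene is deleted.

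The 4 Zfp750_KO samples are labelled fl/fl for ZNF750, of which 3 are Rosa26 +/- and 1 is Rosa26 -/-. Of the 3 control samples, 2 are labelled wt/fl and 1 wt/wt, all Rosa26 +/-. Every sample, control or knockout, carries 1 copy of a Cre gene named Lrig1-CreERT2 or Lrig1-CreER, and all received 4-OHT (4-hydroxytamoxifen, which activates the Cre) on days 4 to 7 or 5 to 8 of life. Lrig1 is a gene of hair follicle stem cells, so the reporter marks cells in which that promoter was active and their descendants. The table names its columns Zfp750_KO 1M, 2M, 3F and 6F and control 4F, 4M and 7F, and these names cannot be tied to single genotypes beyond the group. The strain is not stated. Nothing in the labels ties a library to its own animal, and the p-values here cover the spread between libraries, which may be technical.

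IGF1 and IGF2 are secreted peptides that activate the receptor tyrosine kinase IGF1R, which signals through IRS adaptors to PI3K, AKT and FOXO. The IGF-binding proteins hold the ligands outside the cell and set how much reaches the receptor, and IGFBP7 binds them only weakly. In skin, fibroblasts of the dermis and the dermal papilla are known sources of IGF1, which acts on keratinocytes and the hair follicle. H19 is transcribed from the maternal chromosome and Igf2 from the paternal one. They share enhancers and an imprinting control region, and H19 RNA is abundant in embryonic tissues and skeletal muscle.

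The libraries held 9.09 to 17.1 M reads each, as recovered from the deposited values, and differed in transcripts of other cell types within both groups. The macrophage score, the mean log2 value of 22 macrophage and monocyte genes, was 7.43, 7.07, 10.99 and 10.8 in 1M, 2M, 3F and 6F of Zfp750_KO, against 6.06, 9.92 and 10.1 in 4F, 4M and 7F of control. The same mean over 20 fibroblast genes was 14.8, 14.8, 12.46 and 12.8 in Zfp750_KO, against 14.4, 14.1 and 13.8 in control. Summed transcripts of 8 basal keratinocyte genes were 209 to 2133 per M of the library in Zfp750_KO and 232 to 2284 per M in control. The sum over the fibroblast genes was far higher, 23639 to 151776 per M in Zfp750_KO and 103461 to 206769 per M in control. The labels call the cells skin cells and name no cell type. Control 4M is named as male and held the Y-linked gene Ddx3y at 67.9 per M, but also held Xist at 278 per M, where the other male-named libraries had at most 0.466 per M and the female-named ones at least 1774 per M. In Zfp750_KO the male-named 1M and 2M had the low macrophage scores and the female-named 3F and 6F the high ones. Sex and score cannot be told apart within that group, and no male-named control had a low score. Where leaving out control 4M changed the call of one of the 10 genes, the value without it is given.

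Zfp750 itself (ENSMUSG00000039238, chromosome 11) had normalized values of 48.9, 45.4, 10.1 and 29.6 in 1M, 2M, 3F and 6F of Zfp750_KO, against 335, 51.2 and 61.9 in 4F, 4M and 7F of control. The groups did not overlap, with Zfp750_KO lower, as for 3.91% of genes. The lowest control value, 51.2, came from 39 reads, and the highest Zfp750_KO value, 48.9, from 47. Krt5 of basal keratinocytes was 909, 361, 67.5 and 158 per M in Zfp750_KO, against 1112, 83.5 and 128 in control, in that order. The part of keratinocyte RNA in the Zfp750 difference was not tested. On the scale log2(value + 11.9) Zfp750 differed by -1.47 (exact permutation test, two-sided, p = 0.0571), and by -0.69 without control 4F. The two-sided p was the smaller one-sided p doubled, and in this form 0.0571 is the smallest that 35 splits of 7 libraries allow. The limma adjusted p of Zfp750 was 0.891 with the group term alone and 0.0595 with the macrophage score as a covariate.

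H19 and Igf2 lie on chromosome 7, 72.6 kb apart on the minus strand, and each contains a microRNA precursor. The mature microRNAs are shown because a change of the H19 transcript concerns the precursor of miR-675 as well. They are RefSeq sequences on GRCm38.p6, minus strand, with the seed (bases 2 to 8) in capitals. The libraries do not measure mature microRNAs, and the 4 seeds differ from each other.
mmu-miR-675-5p, inside H19, chr7:142577112-142577133: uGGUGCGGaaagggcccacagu
mmu-miR-675-3p, inside H19, chr7:142577078-142577099: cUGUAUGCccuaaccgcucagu
mmu-miR-483-5p, inside Igf2, chr7:142654968-142654989: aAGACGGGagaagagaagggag
mmu-miR-483-3p, inside Igf2, chr7:142654932-142654952: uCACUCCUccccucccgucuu

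Promoter windows, 250 bases before to 50 after a start site, were found in RefSeq (GRCm38.p6) for 9 of the 10 genes, 13 windows in all. They were searched for TATAAA, for the AP-1 letters TGANTCA, for the GC box GGGCGG and for CCNNNAGGC, letters reported for human ZNF750. Only the strand of the gene was read, in these windows and in the promoters they are compared with. TGANTCA reads the same on both strands, whereas matches of the others on the opposite strand were not counted. TATAAA stood in 1 of the 13 windows and in 8.32% of 32851 promoters of the same length. TGANTCA stood in 2 of 13 windows and in 7.81% of all promoters. GGGCGG stood in 4 of 13 (23.4% of all) and CCNNNAGGC in 0 of 13 (13.2% of all), on the strand read. On the opposite strand CCNNNAGGC does occur, as GCCTGTAGG in the Igfbp2 window with the AP-1 match. The windows of the 3 binding protein genes that passed the test below are shown, with the matched letters in capitals. Igfbp2 has 2 windows, 1 with 3 GC boxes and 1 with an AP-1 match. Those of Igfbp5 and Igfbp6 hold none of these letters on the strand read. The Igfbp6 window holds TTTATA, which is TATAAA on the opposite strand and is not in capitals.
Igfbp2, chr1:72824230-72824529, plus strand: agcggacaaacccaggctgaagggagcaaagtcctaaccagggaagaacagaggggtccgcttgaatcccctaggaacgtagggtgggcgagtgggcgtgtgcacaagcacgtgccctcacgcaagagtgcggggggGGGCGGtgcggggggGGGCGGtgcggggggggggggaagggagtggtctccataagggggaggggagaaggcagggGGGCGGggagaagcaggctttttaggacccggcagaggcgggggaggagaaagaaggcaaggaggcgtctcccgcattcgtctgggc
Igfbp2, chr1:72825137-72825436, plus strand: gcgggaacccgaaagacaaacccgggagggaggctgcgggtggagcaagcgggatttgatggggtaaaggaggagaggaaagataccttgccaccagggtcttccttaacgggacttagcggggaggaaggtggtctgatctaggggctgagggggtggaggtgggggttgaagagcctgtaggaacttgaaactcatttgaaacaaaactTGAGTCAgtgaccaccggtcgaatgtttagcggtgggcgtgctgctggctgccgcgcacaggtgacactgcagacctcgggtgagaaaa
Igfbp5, chr1:72874816-72875115, minus strand: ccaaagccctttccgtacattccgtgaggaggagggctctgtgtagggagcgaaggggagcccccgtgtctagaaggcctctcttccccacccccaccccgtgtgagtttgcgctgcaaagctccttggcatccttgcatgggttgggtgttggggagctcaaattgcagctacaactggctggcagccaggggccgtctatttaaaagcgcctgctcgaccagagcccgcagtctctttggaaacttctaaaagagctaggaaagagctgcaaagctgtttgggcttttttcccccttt
Igfbp6, chr15:102143936-102144235, plus strand: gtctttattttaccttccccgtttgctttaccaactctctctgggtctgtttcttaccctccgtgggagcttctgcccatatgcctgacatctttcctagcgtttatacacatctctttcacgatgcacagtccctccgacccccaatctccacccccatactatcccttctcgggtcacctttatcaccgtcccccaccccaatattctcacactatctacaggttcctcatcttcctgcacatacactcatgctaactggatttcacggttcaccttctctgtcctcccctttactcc

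Across the 10 genes, 3 were lower and 1 was higher in Zfp750_KO with the macrophage score as a covariate, and 6 did not pass the test. Lower were H19, Igfbp5, which encodes a binding protein held in the extracellular matrix, and Igfbp6, whose protein prefers IGF2. Igfbp2, the gene of another IGF2-preferring binding protein, was higher. In this limma fit, with the macrophage score as a covariate and Benjamini-Hochberg adjustment over 18141 genes, 3.89% of all genes passed 0.05 (1.54% higher and 2.34% lower). With the group term alone none of the 10 passed, in a fit in which 0% of genes did, and 2 of the 10 had an unadjusted p under 0.05, against 5.83% of all genes. The values of H19 and Igfbp6 did not overlap between the groups, both lower in Zfp750_KO, as for 3.91% of genes, and those of the other 8 did. Without regard to direction, 7.1% of genes did not overlap, and 3.19% were higher without overlap. The median difference of the 10 genes was -0.18 with the score and -0.30 without it, against 0.02 over all genes in each fit. In bulk samples, fewer cells of a type and less RNA per cell cannot be told apart.

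**Figure D1:**
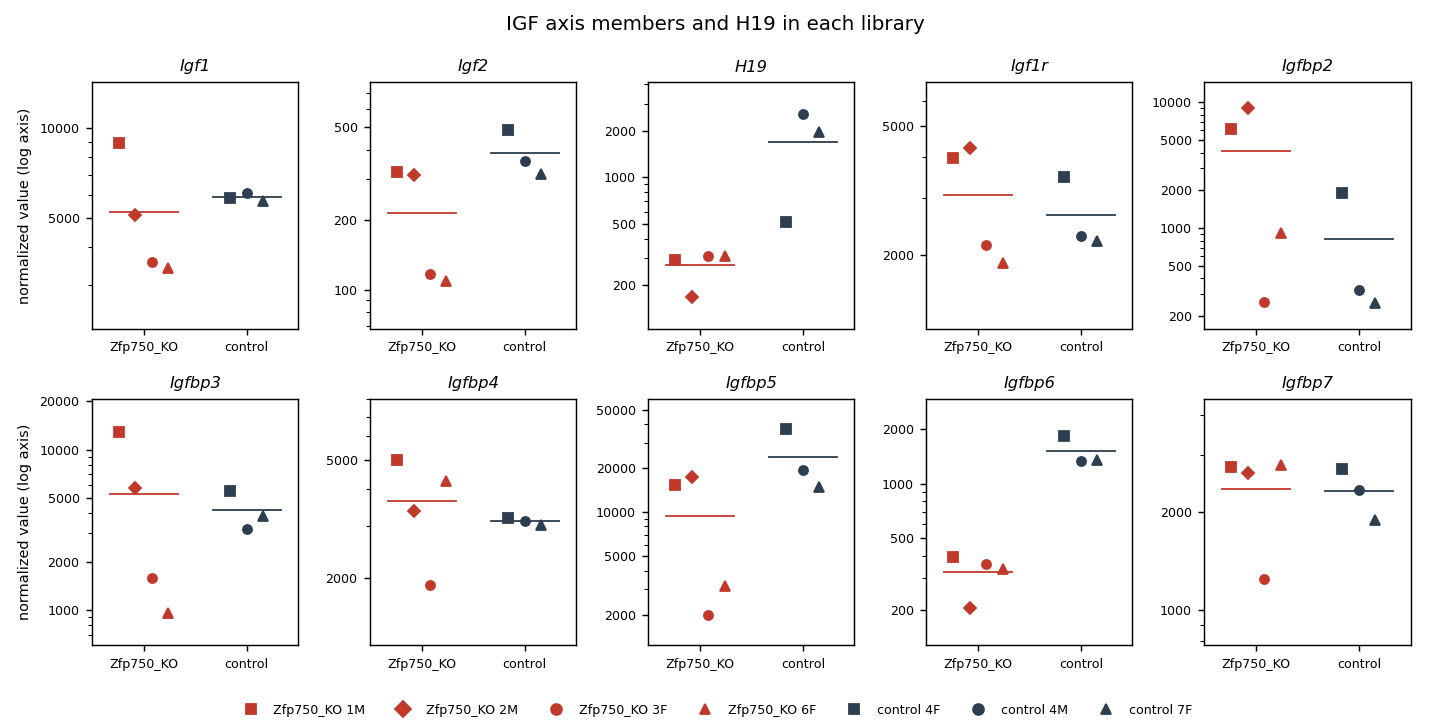
Normalized value (log axis) of each of the 10 genes in the 4 Zfp750_KO libraries (left, red) and the 3 control libraries (right, blue), 1 point per library, with the arithmetic mean of each group as a line. H19 and Igfbp6 separate the groups, while Igf1, Igf2, Igf1r, Igfbp2, Igfbp3, Igfbp4, Igfbp5 and Igfbp7 overlap.

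**Figure D2:**
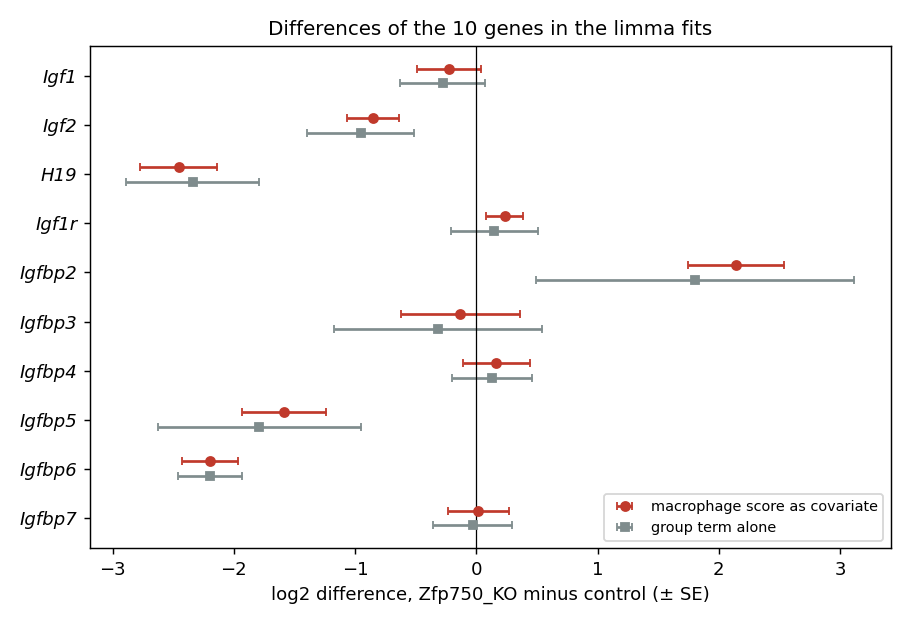
Log2 difference, Zfp750_KO minus control, with its standard error for the 10 genes in the 2 limma fits on log2(value + 11.9). Igfbp6 sits at -2.20 in both fits, whereas the standard error of Igfbp2 is 0.40 with the macrophage score and 1.31 without it.

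Igf1 (ENSMUSG00000020053, chromosome 10) was 8906, 5121, 3567 and 3421 in 1M, 2M, 3F and 6F of Zfp750_KO, against 5863, 6094 and 5725 in 4F, 4M and 7F of control. The 3 controls lay close together and the Zfp750_KO libraries spread on both sides of them, with means of 5254 ± 2553 (SD, n = 4) in Zfp750_KO and 5894 ± 186 (SD, n = 3) in control. The log2 difference was -0.23 ± 0.26 (SE, adjusted p = 0.730) with the score and -0.28 ± 0.35 without it. Igf1 overlaps the antisense gene Igf1os, which was at 0.966 to 2.08 in Zfp750_KO and at 0 to 3.94 in control, and the strand setting of the counting is not given in the sources used here.

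Igf2 (ENSMUSG00000048583, chromosome 7) was 322, 312, 117 and 109 in 1M, 2M, 3F and 6F of Zfp750_KO, against 488, 357 and 316 in 4F, 4M and 7F of control. Only Zfp750_KO 1M reached above the lowest control, and 3F and 6F, the libraries with the highest macrophage scores, were lowest. The means were 215 ± 118 (SD, n = 4) in Zfp750_KO and 387 ± 89.7 (SD, n = 3) in control. The difference was -0.85 ± 0.21 with the score, and its limma adjusted p of 0.0643 did not pass. It passed in 7 of 18 alternatives, with -1.14 and an adjusted p of 0.00274 without control 4F. Without the score it was -0.95 ± 0.44, with an adjusted p of 0.901.

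H19 (ENSMUSG00000000031, chromosome 7) was 294, 168, 309 and 309 in 1M, 2M, 3F and 6F of Zfp750_KO, against 512, 2576 and 1966 in 4F, 4M and 7F of control. All 4 Zfp750_KO libraries were below the lowest control, which stood 1.66-fold above the highest Zfp750_KO library and well below the other 2 controls. The means were 270 ± 68.2 (SD, n = 4) in Zfp750_KO and 1685 ± 1060 (SD, n = 3) in control. The log2 difference was -2.45 ± 0.31 (SE) with the score, with a limma adjusted p of 0.00486. It passed in 17 of 18 alternatives and ranged from -2.92 to -2.15 when libraries were left out. With a fibroblast score in place of the macrophage score it was -2.47, with an adjusted p of 0.0532. With the group term alone it was -2.34 ± 0.55, with an adjusted p of 0.361.

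Transcripts of skeletal muscle moved with H19. Summed over 10 muscle fibre genes they were 11.1, 8.38, 61.7 and 39.6 per M in 1M, 2M, 3F and 6F of Zfp750_KO, against 29.0, 663 and 452 per M in 4F, 4M and 7F of control. Of the 8 that were tested, 7 were lower in the fit with the score (2.34% of all genes were) and 2 were lower without overlap (3.91% of all genes). The count of 7 was 4 without control 4M, 3 without control 7F, 0 with the fibroblast score in place of the macrophage score and 6 to 8 without any other single library. Control 4M and 7F, the libraries highest in H19, were also the highest in this sum. Control 4F lay below Zfp750_KO 3F and 6F, so the sum overlapped between the groups, whereas H19 did not. Mylpf, a light chain of fast muscle myosin, was 4.16, 3.86, 13.5 and 15.2 in Zfp750_KO, against 19.4, 171 and 93.4 in control, in the same order of libraries.

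Of 9 genes of muscle progenitors, 4 were lower with the score (2.34% of all genes were), and 5 were lower without overlap (3.91% of all genes), namely Myod1, Megf10, Myog, Pax7 and Cdh15. The count of 4 was 2 without control 4M or without control 7F. Myog, a transcription factor of muscle differentiation, was 0, 1.93, 7.89 and 16.5 in 1M, 2M, 3F and 6F of Zfp750_KO, against 86.7, 113 and 102 in 4F, 4M and 7F of control. Cdh15, the cadherin of muscle progenitors, was 15.6, 15.4, 10.1 and 25.5 in Zfp750_KO, against 118, 73.5 and 82.1 in control. These 2 genes were low in every Zfp750_KO library and close together in the controls, unlike Mylpf. The summed level of the 9 genes overlapped between the groups, at 86.6, 108, 10.4 and 15.04 per M in 1M, 2M, 3F and 6F of Zfp750_KO, against 57.3, 49.7 and 67.0 per M in 4F, 4M and 7F of control. Most of that sum in Zfp750_KO 1M and 2M came from Chodl, a membrane lectin gene, which went the other way from the lower members and did not pass. Chodl was 951, 1091, 18.0 and 46.1 in Zfp750_KO, against 144, 73.5 and 125 in control, in the same order. The part of muscle RNA in the H19 difference was not tested.

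The ratio of H19 to Igf2 compares these neighbours within a library. With the pseudocount added to both values it was 0.916, 0.556, 2.48 and 2.65 in 1M, 2M, 3F and 6F of Zfp750_KO, against 1.05, 7.01 and 6.03 in 4F, 4M and 7F of control. Control 4F lay among the Zfp750_KO libraries. The log2 ratio averaged 0.44 ± 1.11 (SD, n = 4) in Zfp750_KO and 1.82 ± 1.52 (SD, n = 3) in control, a difference of -1.39 (exact permutation test, two-sided, p = 0.229). It stayed between -2.26 and -0.89 when libraries were left out, where the test cannot pass, as its smallest p is 0.0571 even with all libraries.

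**Figure D3:**
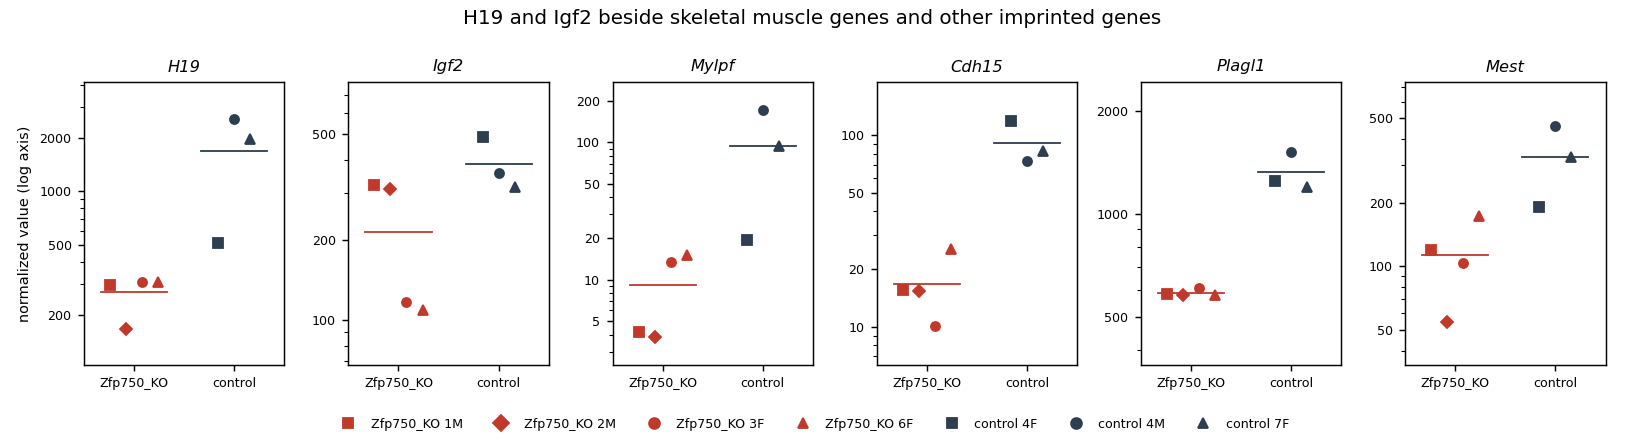
Normalized values (log axis) of H19 and Igf2 beside Mylpf and Cdh15 of skeletal muscle and the imprinted genes Plagl1 and Mest, with Zfp750_KO (red) left of control (blue), 1 point per library and the group's arithmetic mean as a line. H19 and Mylpf share a low control 4F, whereas Plagl1 lies at 579 to 606 in all 4 Zfp750_KO libraries and at 1201 to 1514 in control.

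Igf1r (ENSMUSG00000005533, chromosome 7), the receptor of both ligands, was 3987, 4270, 2138 and 1888 in 1M, 2M, 3F and 6F of Zfp750_KO, against 3480, 2279 and 2212 in 4F, 4M and 7F of control. The higher values were those of the 3 libraries with low macrophage scores, in either group. The means were 3071 ± 1231 (SD, n = 4) in Zfp750_KO and 2657 ± 713 (SD, n = 3) in control. The difference was 0.23 ± 0.15 with the score (adjusted p = 0.496) and 0.15 ± 0.36 without it.

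The 6 binding protein genes did not move in 1 direction. Igfbp6 (ENSMUSG00000023046, chromosome 15) gave the most even separation, at 393, 206, 358 and 340 in 1M, 2M, 3F and 6F of Zfp750_KO, against 1830, 1325 and 1357 in 4F, 4M and 7F of control. The lowest control was 3.37-fold above the highest Zfp750_KO library. Across libraries unlike in macrophage and fibroblast scores, values spanned 1.91-fold within Zfp750_KO and 1.38-fold within control. The means were 324 ± 82.0 (SD, n = 4) in Zfp750_KO and 1504 ± 283 (SD, n = 3) in control. The log2 difference was -2.20 ± 0.23 (SE) with the score, with a limma adjusted p of 0.00312, and it passed in all 18 alternatives (-2.33 to -1.91, adjusted p 0.000363 to 0.0282). Without the score it was -2.20 ± 0.26 with an unadjusted p of 4.7e-05 and an adjusted p of 0.104. Of the 20 fibroblast genes, 2, Fap and Mfap5, were also lower with the score (2.34% of all genes were) and 18 did not pass. Both were lower without overlap (3.91% of all genes). The part of fibroblast RNA in the Igfbp6 difference was not tested.

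Igfbp5 (ENSMUSG00000026185, chromosome 1) was 15366, 17313, 1974 and 3129 in 1M, 2M, 3F and 6F of Zfp750_KO, against 37258, 19443 and 14844 in 4F, 4M and 7F of control. Control 7F lay below Zfp750_KO 1M and 2M, so the groups overlapped, and within each macrophage range the Zfp750_KO libraries were the lower ones. The means were 9445 ± 8014 (SD, n = 4) in Zfp750_KO and 23848 ± 11838 (SD, n = 3) in control. The difference was -1.59 ± 0.35 with the score (limma adjusted p = 0.0394) and -1.79 ± 0.84 without it (adjusted p = 0.909). The call was lost without Zfp750_KO 2M, 3F or 6F (adjusted p 0.0588, 0.0769 and 0.0994), without control 4M or 7F (0.194 and 0.178) and with the pseudocount divided by 4 (0.0519).

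Igfbp2 (ENSMUSG00000039323, chromosome 1) lies 5456 bases from Igfbp5 in the deposited coordinates, on the other strand, and differed the other way. It was 6157, 9019, 260 and 924 in 1M, 2M, 3F and 6F of Zfp750_KO, against 1897, 324 and 255 in 4F, 4M and 7F of control. The rise rests on unlike libraries: 1M and 2M stood above every control, 6F between the controls, and 3F at the level of control 4M and 7F. The means were 4090 ± 4213 (SD, n = 4) in Zfp750_KO and 825 ± 928 (SD, n = 3) in control. The difference was 2.14 ± 0.40 with the score (limma adjusted p = 0.0205) and 1.80 ± 1.31 without it (adjusted p = 1.0). The call was lost without Zfp750_KO 1M, 2M or 6F (adjusted p 0.0511, 0.0637 and 0.0600), without control 4M or 7F (0.0711 and 0.0824) and with robust moderation (0.0523). Transcripts of mural and smooth muscle cells moved with Igfbp2: 5 of 8 such genes were higher with the score (1.54% of all genes were) and 1 was higher without overlap (3.19% of all genes). Their sum was 874, 979, 296 and 449 per M in 1M, 2M, 3F and 6F of Zfp750_KO, against 634, 235 and 235 per M in 4F, 4M and 7F of control. The count of 5 was 3 without control 4M or without control 7F, and 1 with the fibroblast score. Des, also among the 8, went the other way, with -0.88 ± 0.25 with the score, and did not pass (limma adjusted p = 0.0958). With array weights, a sex term, the first principal component as covariate or without control 4F, 1 of the 8 was lower. The part of mural and smooth muscle transcripts in the Igfbp2 difference was not tested.

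Igfbp3 (ENSMUSG00000020427, chromosome 11), the gene of the main binding protein of blood plasma, was 12958, 5784, 1571 and 961 in 1M, 2M, 3F and 6F of Zfp750_KO, against 5488, 3199 and 3825 in 4F, 4M and 7F of control. The Zfp750_KO libraries enclosed the controls on both sides. The means were 5318 ± 5526 (SD, n = 4) in Zfp750_KO and 4171 ± 1183 (SD, n = 3) in control, and the difference was -0.13 ± 0.49 with the score (adjusted p = 0.931), with a sign that changed between alternatives.

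Igfbp4 (ENSMUSG00000017493, chromosome 11), the gene of the binding protein that the protease PAPP-A cleaves, was 5015, 3354, 1903 and 4233 in 1M, 2M, 3F and 6F of Zfp750_KO, against 3192, 3125 and 3028 in 4F, 4M and 7F of control. As for Igf1, the controls were nearly level and the Zfp750_KO libraries lay on both sides. The means were 3626 ± 1335 (SD, n = 4) in Zfp750_KO and 3115 ± 82.5 (SD, n = 3) in control, and the difference was 0.16 ± 0.28 with the score (adjusted p = 0.827).

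Igfbp7 (ENSMUSG00000036256, chromosome 5) was 2771, 2656, 1242 and 2806 in 1M, 2M, 3F and 6F of Zfp750_KO, against 2732, 2346 and 1898 in 4F, 4M and 7F of control. Apart from Zfp750_KO 3F the libraries were alike. The means were 2369 ± 754 (SD, n = 4) in Zfp750_KO and 2325 ± 418 (SD, n = 3) in control, and the difference was 0.02 ± 0.25 with the score (adjusted p = 0.984). It overlaps Polr2b on the opposite strand, which was at 389 to 446 in Zfp750_KO and at 336 to 564 in control.

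Per kb of exon, from the merged exons of the GENCODE M21 basic annotation, Igfbp5 had the highest median level over the 7 libraries, 219 per M per kb. Igfbp7 followed at 167, Igfbp3 at 109, Igfbp4 at 66.7, Igfbp2 at 60.6, Igf1 at 44.8, Igfbp6 at 29.9, Igf1r at 17.4, H19 at 12.9 and Igf2 at 4.58 per M per kb. Neighbours in this order overlap in their ranges over the libraries. The 6 binding protein genes summed to 1107, 1073, 264 and 495 per M per kb in 1M, 2M, 3F and 6F of Zfp750_KO, against 1058, 705 and 663 per M per kb in 4F, 4M and 7F of control. The sum was lowest in 3F and 6F, the libraries with the lowest fibroblast scores.

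The makeup of that sum differed between the groups for Igfbp5 and Igfbp6. Igfbp5 made up 17.2, 20.4, 11.6 and 10.1% in 1M, 2M, 3F and 6F of Zfp750_KO, against 44.4, 38.5 and 33.3% in 4F, 4M and 7F of control, without overlap. Igfbp6 made up 2.38, 1.31, 11.3 and 5.91% in Zfp750_KO, against 11.8, 14.2 and 16.4% in control, also without overlap. Igfbp5 was the most abundant binding protein transcript in all 3 controls, whereas it was Igfbp2 in Zfp750_KO 1M and 2M and Igfbp7 in 3F and 6F. These shares come from the same values as the tests above and were not tested again.

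**Figure D4:**
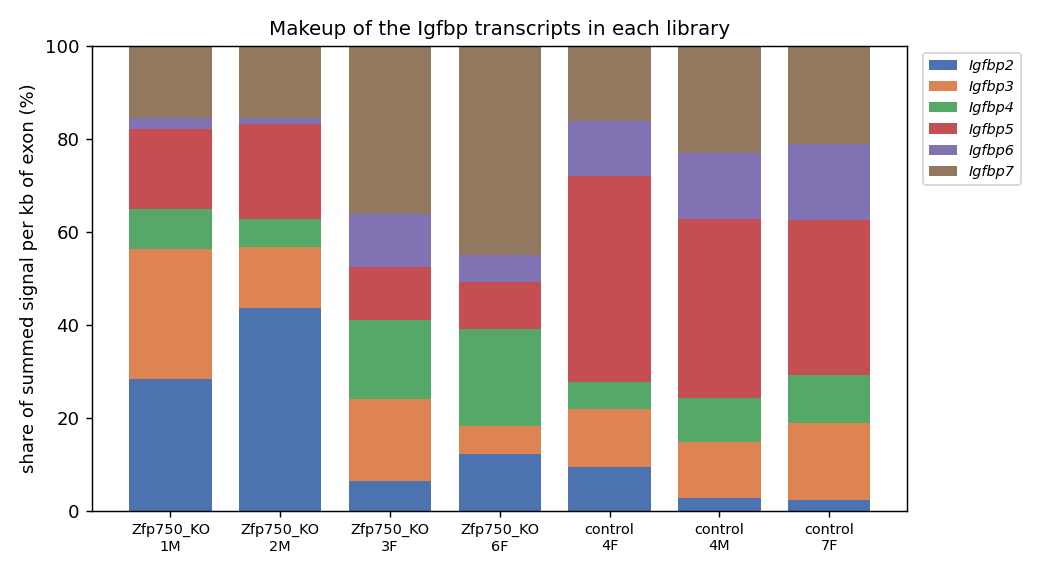
Share (%) of each binding protein gene in the summed level per kb of exon of the 6 genes, 1 bar per library, with the 4 Zfp750_KO libraries left of the 3 controls. Igfbp5 takes 10.1 to 20.4% in Zfp750_KO and 33.3 to 44.4% in control.

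Among the 10 genes, likeness of pattern was measured as the root mean square difference of log2 values centred on each gene's mean over the 7 libraries. Of the 45 pairs, Igfbp4 and Igfbp7 were most alike (0.20), H19 and Igf2 were rank 27 (1.29), and H19 and Igfbp2 were least alike (3.07). The other tested genes were ranked by the same measure, leaving out predicted ones (symbols Gm followed by digits, or ending in Rik). Nearest to H19 were Mylpf (0.29), Casq1 (0.34) and Apobec2 (0.39), against a median of 1.44 over the genes ranked. All 3 are genes of skeletal muscle, Casq1 encoding the calcium store protein calsequestrin. Arhgap20 (0.18), Clec3b (0.21) and Agtr1a (0.24) were nearest to Igfbp6 (median 1.20). Clec3b encodes the plasminogen-binding protein tetranectin and Agtr1a a receptor of angiotensin. Nearest to Igf1 were Adamts3 (0.13), Wnt4 (0.14) and Endou (0.16), with a median of 0.56, and to Igf2 Sdr39u1 (0.14), Zfp354c (0.15) and Map1b (0.15), with a median of 0.79.

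Other genes of the pathway were followed as lists. Of 13 other receptors and adaptors, 10 were tested and 1, Grb14, was lower with the score. Of all genes, 2.34% were lower and 3.89% passed in either direction. In this list 2, Grb14 and Irs1, were lower without overlap, where 3.91% of all genes were. Grb14, an adaptor that binds and inhibits the insulin receptor, was 21.8, 11.6, 9.02 and 12.4 in 1M, 2M, 3F and 6F of Zfp750_KO, against 69.7, 32.8 and 52.9 in 4F, 4M and 7F of control. Its difference was -1.25 ± 0.25 (adjusted p = 0.0294), and the call was lost in 6 of 17 alternatives, among them without Zfp750_KO 2M, 3F or 6F (0.0913, 0.0661 and 0.0550) and without control 4M or 7F (0.0662 and 0.137). Irs1, the adaptor that couples IGF1R to PI3K, was named after its values were seen. It was 2140, 2454, 1243 and 1241 in Zfp750_KO, against 2879, 3387 and 2842 in control, without overlap, and its adjusted p of 0.0790 did not pass.

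Of 19 genes of PI3K, AKT, FOXO and mTOR, all were tested and 1 was lower, where 2.34% of all genes were, and 3 were lower without overlap, where 3.91% of all genes were. Foxo1, a transcription factor that AKT keeps out of the nucleus, was 1273, 1414, 1243 and 1170 in 1M, 2M, 3F and 6F of Zfp750_KO, against 2827, 1991 and 2126 in 4F, 4M and 7F of control. The groups did not overlap, and the difference was -0.81 ± 0.13 with the score (adjusted p = 0.0130). The call was lost without control 4M (0.0588) or 7F (0.0822). The other 2 without overlap, Akt2 and Pik3r1, did not pass.

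None of the 12 genes of binding protein proteases and their inhibitors passed. The 2 with the highest means were Htra1, a secreted serine protease, with a difference of 0.34 ± 0.54, and Adamts1, a metalloprotease, with -0.54 ± 0.20. Pappa, the gene of PAPP-A, named after its values were seen, was 2504, 2548, 132 and 278 in 1M, 2M, 3F and 6F of Zfp750_KO, against 797, 175 and 199 in 4F, 4M and 7F of control, with 1.48 ± 0.37 and an adjusted p of 0.0615. It was among the 3 genes most alike to Igfbp2, predicted genes left out, with the same high libraries. Of 6 genes that act on Igf2 mRNA or the let-7 axis, 2 were tested, the mRNA-binding Igf2bp3 (-0.23 ± 0.22) and Igf2bp2 (0.04 ± 0.39), and neither passed.

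Of 28 other imprinted genes listed, 24 were tested, 7 were lower and 0 higher with the score (2.34% of all genes were lower), and 9 were lower without overlap (3.91% of all genes). The median difference of the 24 was -0.55 with the score and -0.48 without it, against 0.02 over all genes, and with the group term alone 0 passed. Among the 7, the 4 with the largest differences were Rtl1 (-1.63, adjusted p = 0.0210), Mest (-1.53, 0.0192), Zdbf2 (-1.52, 0.00842) and Rian (-1.31, 0.0364). Meg3 was at -1.46 and did not pass (0.0517). Rtl1 and Rian are neighbours in the Dlk1 and Meg3 domain on chromosome 12 and are not independent. The remaining 3 were Plagl1, Airn and Ndn.

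Plagl1 (ENSMUSG00000019817, chromosome 10), named after its values were seen, encodes a zinc finger factor known in mouse to regulate other imprinted genes, H19 and Igf2 among them. It was 584, 580, 606 and 579 in 1M, 2M, 3F and 6F of Zfp750_KO, against 1248, 1514 and 1201 in 4F, 4M and 7F of control. The 4 Zfp750_KO libraries were nearly level across their range of macrophage scores. The difference was -1.15 ± 0.14 with the score (limma adjusted p = 0.00339), and it passed in all 18 alternatives (adjusted p 0.00076 to 0.0304).

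Mest, a hydrolase gene expressed from the paternal copy, was 120, 54.97, 103 and 173 in 1M, 2M, 3F and 6F of Zfp750_KO, against 192, 463 and 330 in 4F, 4M and 7F of control. Zdbf2 was 36.4, 38.6, 21.4 and 35.1 in Zfp750_KO, against 117, 106 and 127 in control. Neither overlapped between the groups. The count of imprinted genes that were lower depended on single libraries: it was 7 with all of them, 12 without control 4F, and 1 without control 4M or without 7F. It was 3 without Zfp750_KO 1M, 3F or 6F and 3 with the fibroblast score in place of the macrophage score, and 11 with array weights or a sex term. Plagl1 passed with any library left out, whereas the other 6 lost their calls without control 4M, at adjusted p 0.0518 to 0.183. Grb10 and Igf2r stand in this list and among the receptors and adaptors.

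**Figure D5:**
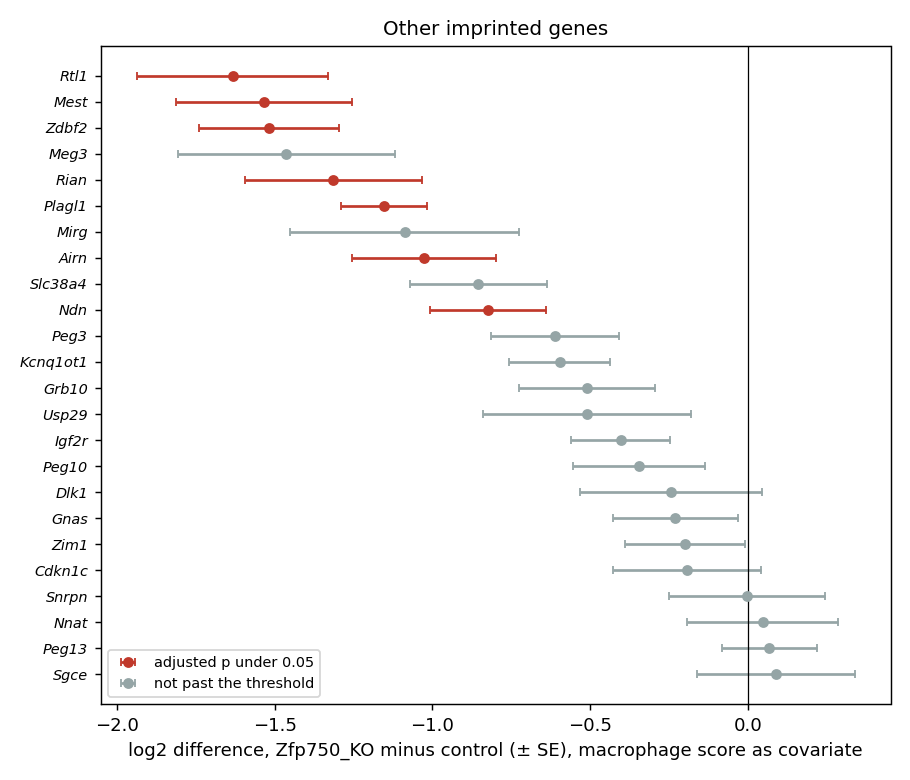
Log2 difference, Zfp750_KO minus control, with its standard error for the 24 tested imprinted genes other than H19 and Igf2, in the limma fit with the macrophage score. The 7 genes past the threshold (red) lie between -1.63 and -0.82, and 17 did not pass (grey).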

How the data were processed

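Bulk RNA-seq was made from sorted tdTomato-expressing skin cells, 4 Zfp750_KO and 3 control libraries. A PureLink RNA kit and the NEBNext Ultra II library kit were used, per the labels' protocols. TopHat2 2.1.0 and Partek 9.0.20.0202 are named per the submitters' processing notes, while no build or strand setting of the counting is stated in what was read. Normalized counts were deposited by the authors, a signal in which partly estimated reads are divided by 1 factor per library: 78.0% to 79.6% of values below 200 reads were whole multiples of that step (tolerance 0.02 reads), so whole reads were not recovered and no count model was used. The fewest reads of a listed gene were 10, and the lowest count behind a value of the 10 genes was 104 reads. The nuclear coordinates of the table belong to a build that it does not name, so only chromosomes, identifiers and distances are given from it.

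The analysis used log2(value + 11.9), adding 1 per M of the median total of the columns, a scale that understates the change of low genes. The 18141 genes with at least 1 per M in at least 3 libraries were tested with limma 3.58.1 in R 4.3.3 (lmFit, eBayes with a trend, Benjamini-Hochberg, threshold 0.05), with the group term alone and with the macrophage score as a covariate. All 10 genes were tested. Single values were tested by exact permutation over 35 splits, with the smaller one-sided p doubled. Columns were put in groups by their names, and the letters M and F were read as sex (Ddx3y matched in 7 of 7). In every pair of libraries, 37.3% to 75.4% of genes over 20 reads stood apart by more than counting noise, so none was taken for the same library deposited again.

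The 10 genes, the lists and both fits were chosen with earlier results of these data known. In each pathway list, genes past the threshold are named, at most 4 by size of difference, or else the 2 with the highest mean. For each of Igfbp6, H19, Igf1 and Igf2 the 3 genes most alike are named, predicted genes left out. Alternatives were other pseudocounts, filters, scalings, robust moderation, array weights, a sex term, other covariates and leaving out each library. Those for the muscle and mural marker lists were added after seeing the data.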

Additional observations from a re-analysis of the deposited data

Results flagged for a closer look

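Among the 10 genes, the 4 Zfp750_KO libraries were examined for a value far from the rest on the log2 scale, as the share of the group's range taken by the gap of its highest or lowest library against Dixon's 95% critical value for 4 samples. Chance passes about 1 in 20 groups, and 10 groups were examined. The share was 0.919 for H19, where Zfp750_KO 2M (168) was below 1M, 3F and 6F (294, 309 and 309). It was 0.933 for Igfbp7, where Zfp750_KO 3F (1242) was below 1M, 2M and 6F (2771, 2656 and 2806). Zfp750_KO 2M had the lowest macrophage score of its group and 3F the highest, and their part in these gaps was not tested.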

How the results depend on the processing

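No paired analysis was possible because the columns carry no replicate numbers of the samples' titles. With the group term alone, no gene passed under 15 of 16 alternatives, whereas array weights gave 3795 genes, 4 of them among the 10 (H19, Igf1r, Igfbp2 and Igfbp6). With the macrophage score, 705 genes passed, against 1292 with array weights, 1294 with a sex term and 168 to 1563 when libraries were left out (168 without control 4M, 202 without control 7F, 366 without Zfp750_KO 2M, 455 without Zfp750_KO 1M, 469 without Zfp750_KO 3F and 1563 without control 4F). The 10 genes then gave 2 to 5 calls, against 4 with all libraries, and 2 without Zfp750_KO 2M or 6F or without control 4M or 7F. Igfbp6 kept its call in all 18 alternatives of this fit. Among the 10 genes, sign changes were seen in those that did not pass with all libraries. With the group alone these were, under array weights, Igf1 (0.042), Igfbp3 (0.82) and Igfbp7 (0.34), and, over libraries left out, Igf1r (-0.041 to 0.36), Igfbp3 (-0.97 to 0.27), Igfbp4 (-0.053 to 0.41) and Igfbp7 (-0.17 to 0.25). With the score, Igfbp7 was -0.072 under quantile normalization, -0.019 with a sex term, -0.039 with the first principal component and -0.17 to 0.24 over libraries left out. Igfbp3 was 0.19 with the fibroblast score and -0.80 to 0.23 over libraries left out, and Igfbp4 was -0.013 to 0.41. The causes were not tested. The H19 to Igf2 ratio and Zfp750 stayed on their side of the threshold in 10 of 10 alternatives. With 3 libraries against 4, the doubled one-sided p of the permutation test cannot fall below 0.0571.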

Other observations

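Some genes of the lists were too low to be tested. Hmga2, a chromatin protein gene and let-7 target, was 31.2, 72.4, 2.25 and 0.689 in 1M, 2M, 3F and 6F of Zfp750_KO, against 6.19, 1.31 and 5.62 in 4F, 4M and 7F of control. Its higher values were those of 1M and 2M, the libraries highest in Igfbp2. Igf2bp1, which encodes an Igf2 mRNA-binding protein, was 10.4, 3.86, 2.25 and 1.38 in Zfp750_KO, against 0, 0 and 1.12 in control.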
